A study of Mus musculus with 10 samples.

Results

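Transcripts that mark the lining cells of blood vessels were examined in the forebrain of mouse embryos at stage E12.5. The set holds 34 genes, listed by name as endothelial genes of the embryonic brain, with earlier results of these data known, and selected by no measured threshold. Each was read from a row whose platform annotation names that gene alone, and all 34 were measured, each by 1 probe set, among 19938 genes in all. In 5 transgenic embryos (dtg in the titles) a constitutively active form of the transcription factor FoxO3 was driven by the CaMKIIa promoter. The 5 control embryos (stg in the titles) were of the same stage and of the same CD1/NMRI mixed background. The labels do not spell out dtg and stg or say which transgene the controls carry, and luciferase was read from the other side of each forebrain as a measure of transgene activity. The CaMKIIa promoter is known for its activity in forebrain neurons, and whether any endothelial cell carried active FoxO3 was not measured. RNA came from one side of each forebrain, freed of skin and of the main part of the thalamus, and was hybridized to 1 Affymetrix array per embryo. Litters of 2 dams were used and no label ties an embryo to its litter, so a part of litter in the differences was not tested.

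Blood vessels enter the early brain from a plexus at its surface and sprout inward toward the ventricle. Their growth is guided mainly by vascular endothelial growth factors, which act through receptor kinases on the endothelial cell, while angiopoietins and their Tie receptors stabilise the new vessels. Wnt ligands from neural progenitors give these vessels their brain character, with tight junctions and transporters that form the blood-brain barrier. In adult vessels FoxO factors of the endothelial cell itself are known to restrain growth.

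No endothelial gene passed the test between transgenic and control forebrains. At an adjusted p below 0.05 in limma, 0 of 34 passed, where 0.105% of all genes did (21 of 19938, with 0.0652% higher and 0.0401% lower in transgenic embryos), and the smallest adjusted p among the endothelial genes was 0.562. By the unadjusted p below 0.05, 2 of 34 lay under the threshold, Sox7 and Slco1c1, both with higher means in transgenic embryos. Over all genes 7.58% did so in either direction and 4.1% in the upward direction, so this count is near the background. The differences ran from -0.17 to 0.25 on the log2 scale, with a median of -0.058 beside -0.00384 over all genes. Lower means in transgenic embryos were seen for 26 of the 34 and higher ones for 8, where 48.1% of all genes had higher means. That balance turned on 1 array: without control embryo 5, 14 of the 34 had lower means and 20 higher ones, where 47.9% of all genes had higher means, and the median was 0.044. In that fit 0 of 34 passed as well, where 0.186% of all genes did, and Sox7 and Slco1c1 were again the 2 under the unadjusted threshold, where 6.83% of all genes were (3.92% higher and 2.9% lower).

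The arrays bound, gene by gene, how far the measured log2 intensities of these genes could differ. The 95% intervals of the differences included 0 for 32 of 34 genes and lay within 0.5 on the log2 scale either way for 31 of 34. The lowest bound was -0.61, for Emcn, or 0.654-fold, and the highest was 0.49, for Slco1c1, or 1.40-fold. No interval reached 1 on the log2 scale. In a fit that left out genes of low mean level, 28 of the 34 remained. Whether probe sets of such dim genes show smaller differences than their transcripts was not tested. A narrow interval at a dim gene therefore bounds its intensity and not its transcript level. In whole forebrain tissue fewer endothelial cells and less RNA per cell cannot be told apart. Over all genes the arrays correlated in pairs at 0.98 to 0.996, and control embryo 5 had the lowest mean correlation with the other arrays, at 0.985. All values are log2 intensities as deposited, and a level is compared only between embryos for the same gene, since probes differ in brightness.

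**Figure D1:**
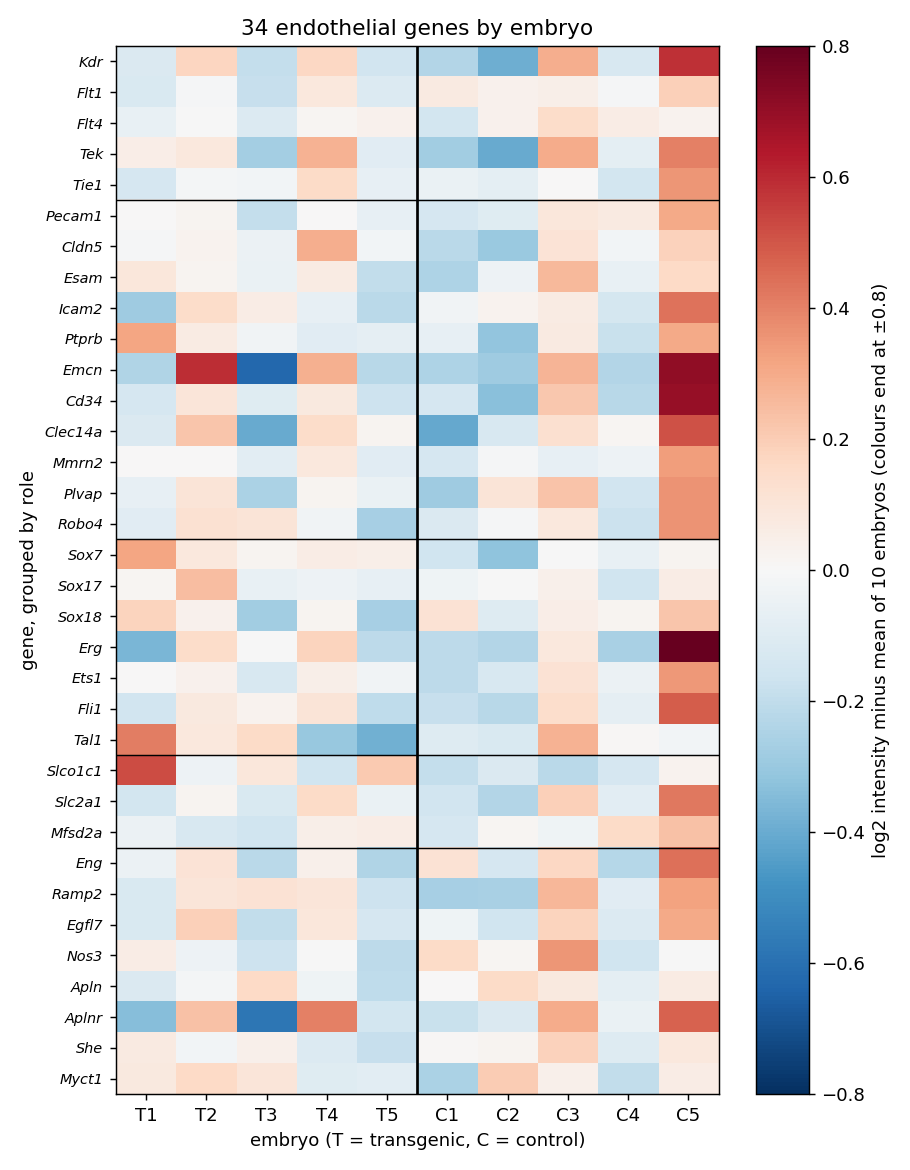
Each row is 1 of the 34 endothelial genes, grouped by role, and each column is 1 embryo (T1 to T5 transgenic, C1 to C5 control). The colour gives the log2 intensity minus that gene's mean over the 10 embryos. The column of control embryo 5 is the reddest: it held the highest of the 10 values in 22 of the 34 genes.

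Of the 5 receptor kinases of vascular growth factors and angiopoietins, 4 had lower means in transgenic embryos, and none passed. Kdr encodes the main signalling receptor for vascular endothelial growth factor A. Kdr read 7.30, 7.59, 7.22, 7.58 and 7.26 in transgenic embryos 1 to 5, against 7.18, 7.03, 7.71, 7.29 and 7.997 in control embryos 1 to 5. The groups overlapped, with control embryo 5 highest and control embryo 2 lowest of all 10. The difference was -0.049 ± 0.166 (SE, n = 5 per group, 95% interval -0.41 to 0.31, limma adjusted p = 0.974), and 0.090 without control embryo 5. Flt1 encodes a receptor that binds the same ligand tightly but signals weakly and is known to act as a trap for it. Flt1 read 5.96, 6.07, 5.90, 6.16 and 5.97 in transgenic embryos 1 to 5, against 6.15, 6.12, 6.13, 6.07 and 6.27 in control embryos 1 to 5. Transgenic embryos 1, 3 and 5 lay below all controls, while transgenic embryo 2 equalled control embryo 4 to 2 decimals and transgenic embryo 4 within the control range. The Flt1 difference of -0.14 ± 0.0634 had the smallest p among the genes with lower means and did not pass (limma adjusted p = 0.667; exact two-sided permutation p = 0.0714).

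Flt4, the receptor for vascular endothelial growth factor C, averaged 4.62 ± 0.0579 in transgenic and 4.67 ± 0.107 in control embryos (SD, n = 5 each). Tek, the angiopoietin receptor also called Tie2, averaged 6.25 ± 0.205 in transgenic and 6.23 ± 0.351 in control embryos (SD, n = 5 each). Its partner receptor Tie1 averaged 6.26 ± 0.104 in transgenic and 6.30 ± 0.197 in control embryos (SD, n = 5 each). In none of these was the difference between the means as large as the larger of the SDs. The 5 receptor genes had a median difference of -0.047, and 0.051 without control embryo 5.

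Genes of the endothelial surface and its junctions likewise gave 0 calls among 11, with differences from -0.14 to 0.097. Pecam1 encodes an adhesion molecule at the contacts between endothelial cells. Pecam1 read 5.99, 6.02, 5.80, 5.996 and 5.93 in transgenic embryos 1 to 5, against 5.86, 5.89, 6.08, 6.07 and 6.29 in control embryos 1 to 5. The groups overlapped, with control embryo 5 highest and transgenic embryo 3 lowest of all 10, and the difference was -0.093 ± 0.0826 (limma adjusted p = 0.859). Cldn5 encodes the main claudin of tight junctions in brain vessels. Cldn5 read 7.15, 7.18, 7.11, 7.45 and 7.13 in transgenic embryos 1 to 5, against 6.94, 6.86, 7.26, 7.13 and 7.34 in control embryos 1 to 5. Transgenic embryo 4 was highest and control embryos 1 and 2 lowest, and the difference of 0.097 ± 0.0997 did not pass (95% interval -0.12 to 0.31, limma adjusted p = 0.877). Icam2 encodes an adhesion ligand for leukocyte integrins. Icam2 read 4.69, 5.12, 5.03, 4.91 and 4.76 in transgenic embryos 1 to 5, against 4.95, 4.998, 5.04, 4.83 and 5.41 in control embryos 1 to 5. Here control embryo 5 was highest and transgenic embryo 1 lowest, with a difference of -0.14 ± 0.111.

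In each of the remaining 8 surface genes the difference between the means was smaller than the SD of the control group. Emcn and Cd34, both sialomucins of the endothelial surface, differed by -0.085 and -0.089. In Emcn the SD was 0.48 among transgenic and 0.439 among control embryos, the widest transgenic spread of the 34 genes. Ptprb, a phosphatase that acts on Tie2 and on junction proteins, differed by 0.078. Clec14a, a lectin-like surface protein, differed by -0.048, and Mmrn2, a matrix protein that binds it, by -0.034. Plvap, a component of the diaphragms of vessels that lack a barrier, differed by -0.10. Esam, a junctional adhesion molecule, differed by -0.031, and Robo4, the endothelial member of the roundabout receptors, by -0.063.

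Among 7 transcription factor genes, Sox7 was the one with the smallest p of all 34. It encodes a SoxF factor that acts in the specification of endothelial cells, together with Sox17 and Sox18. Sox7 read 5.82, 5.59, 5.53, 5.57 and 5.56 in transgenic embryos 1 to 5, against 5.35, 5.19, 5.51, 5.45 and 5.53 in control embryos 1 to 5. Every transgenic embryo lay above every control, though the lowest transgenic value exceeded the highest control value by only 0.000708 on the log2 scale, and transgenic embryo 1 stood well above the rest. The difference was 0.21 ± 0.0793 (95% interval 0.037 to 0.38); it did not pass over all genes (limma adjusted p = 0.562), while the exact two-sided permutation p of 0.00794 is the smallest that 5 against 5 embryos can give. Sox7 was the 1 of 34 genes whose groups did not overlap, where 1.6% of all genes showed this in either direction and 0.978% upward. Sox18 had a lower mean in transgenic embryos. Sox18 read 6.33, 6.18, 5.87, 6.17 and 5.88 in transgenic embryos 1 to 5, against 6.26, 6.05, 6.20, 6.17 and 6.37 in control embryos 1 to 5. The groups overlapped, with transgenic embryos 3 and 5 lowest, and the difference was -0.12 ± 0.0958 (limma adjusted p = 0.834). Sox17 differed by 0.041.

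Erg, Fli1 and Ets1 encode factors of the ETS family, which maintain endothelial identity, and Tal1 encodes a factor shared by endothelial and blood cells. Erg read 4.81, 5.32, 5.18, 5.36 and 4.97 in transgenic embryos 1 to 5, against 4.97, 4.95, 5.26, 4.92 and 6.05 in control embryos 1 to 5. Without control embryo 5, whose Erg value exceeded the mean of the other 4 controls by 1.03, the Erg difference was 0.10, against -0.10 with all embryos. Fli1 differed by -0.059 and Ets1 by -0.027, and both were highest in control embryo 5. Tal1 differed by -0.015, with transgenic embryo 1 highest and transgenic embryo 5 lowest.

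**Figure D2:**
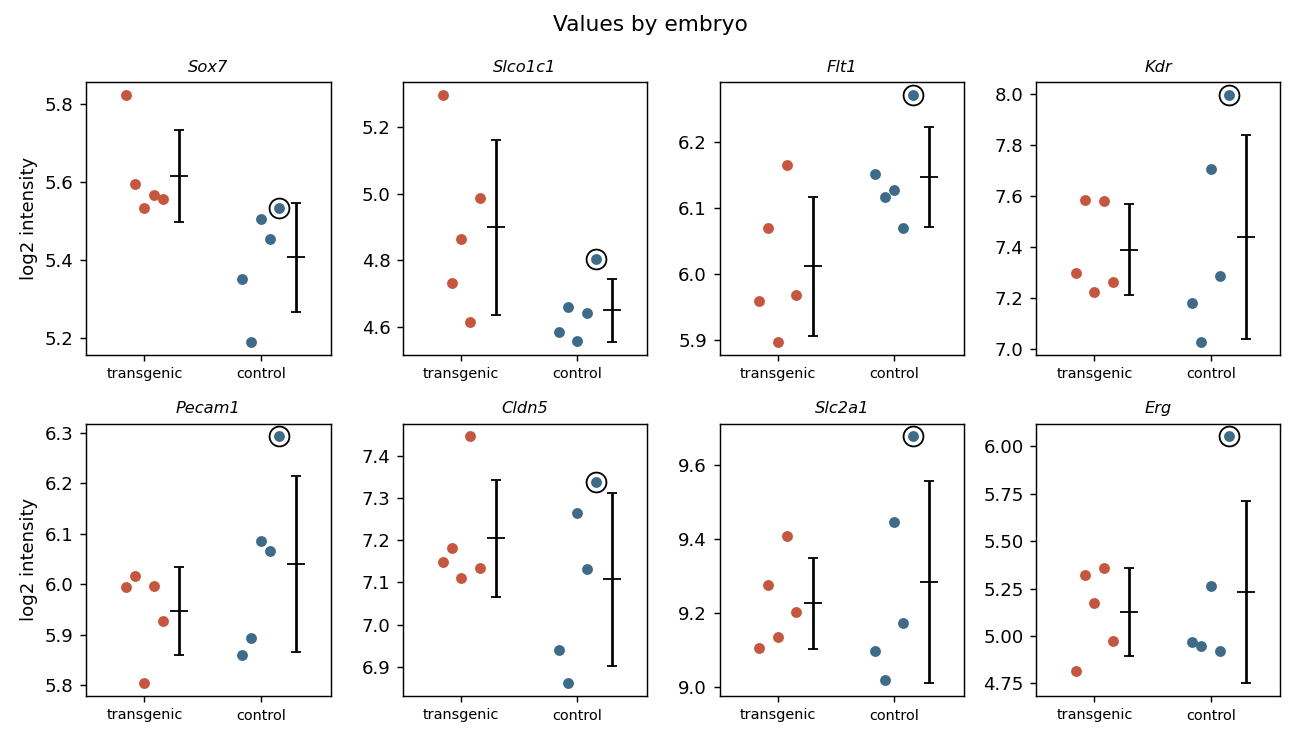
Log2 intensity of 8 endothelial genes in the 5 transgenic (left) and 5 control (right) embryos, with bars for the mean ± SD and a ring around control embryo 5; each panel has its own axis. The groups overlap in all panels but that of Sox7, and control embryo 5 reads highest of all 10 in Flt1, Kdr, Pecam1, Slc2a1 and Erg.

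Of the 3 barrier transporters 1 had a higher and 2 a lower mean in transgenic embryos, and none passed. Slco1c1 encodes a carrier for thyroid hormone at the blood-brain barrier. Slco1c1 read 5.30, 4.73, 4.86, 4.62 and 4.99 in transgenic embryos 1 to 5, against 4.58, 4.66, 4.56, 4.64 and 4.80 in control embryos 1 to 5. Transgenic embryos 1, 3 and 5 lay above all controls and transgenic embryos 2 and 4 within the control range. The Slco1c1 difference of 0.25 ± 0.111 was the highest of the 34 and did not pass (limma adjusted p = 0.642; exact two-sided permutation p = 0.0714). Without transgenic embryo 1 it was 0.15. Mfsd2a encodes a lipid transporter needed for barrier function. Mfsd2a read 7.04, 6.96, 6.93, 7.13 and 7.15 in transgenic embryos 1 to 5, against 6.96, 7.10, 7.06, 7.24 and 7.32 in control embryos 1 to 5. The groups overlapped, with transgenic embryo 3 lowest and control embryo 5 highest, and the difference was -0.094 ± 0.0769 (limma adjusted p = 0.841). Slc2a1 encodes the glucose transporter GLUT1, which is strong in brain vessels and present in other cells, red blood cells among them. Slc2a1 read 9.11, 9.28, 9.13, 9.41 and 9.20 in transgenic embryos 1 to 5, against 9.10, 9.02, 9.44, 9.17 and 9.68 in control embryos 1 to 5. Control embryo 5 was highest and control embryo 2 lowest, and the difference was -0.057 ± 0.117 (95% interval -0.31 to 0.20, limma adjusted p = 0.946).

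Among the 8 further signalling genes, 6 had lower means in transgenic embryos, both with all arrays and without control embryo 5, and none passed. Nos3 encodes the endothelial nitric oxide synthase. Nos3 read 5.67, 5.57, 5.45, 5.61 and 5.404 in transgenic embryos 1 to 5, against 5.77, 5.63, 5.96, 5.45 and 5.61 in control embryos 1 to 5. Control embryo 3 was highest, and the difference was -0.14 ± 0.0916 (limma adjusted p = 0.79). Eng encodes a coreceptor for ligands of the TGF-beta family. Eng read 6.58, 6.73, 6.41, 6.66 and 6.39 in transgenic embryos 1 to 5, against 6.74, 6.49, 6.79, 6.40 and 7.07 in control embryos 1 to 5. Control embryo 5 again read highest, and the difference of -0.14 ± 0.119 was -0.052 without it.

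Apln encodes the peptide apelin, made by growing vessel tips, and Aplnr its receptor. Apln read 5.56, 5.66, 5.84, 5.65 and 5.48 in transgenic embryos 1 to 5, against 5.68, 5.83, 5.76, 5.600 and 5.75 in control embryos 1 to 5. Both ends of the Apln range lay in the transgenic group, in embryos 3 and 5, and the difference was -0.086 ± 0.0721. Aplnr differed by -0.17 ± 0.186, the lowest of the 34 differences, with an SD of 0.404 among transgenic and 0.286 among control embryos. She read 5.47, 5.38, 5.45, 5.29 and 5.22 in transgenic embryos 1 to 5, against 5.41, 5.42, 5.59, 5.30 and 5.49 in control embryos 1 to 5. She encodes an adaptor protein with an SH2 domain, and its difference of -0.081 ± 0.0687 was smaller than either group's SD. Ramp2, which helps form the adrenomedullin receptor, differed by 0.00838, and Egfl7, a secreted endothelial protein, by -0.070. Myct1 differed by 0.061; it was the 1 of 34 genes with a mean below the lower quartile of all genes, and the table holds no detection call for it.

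**Figure D3:**
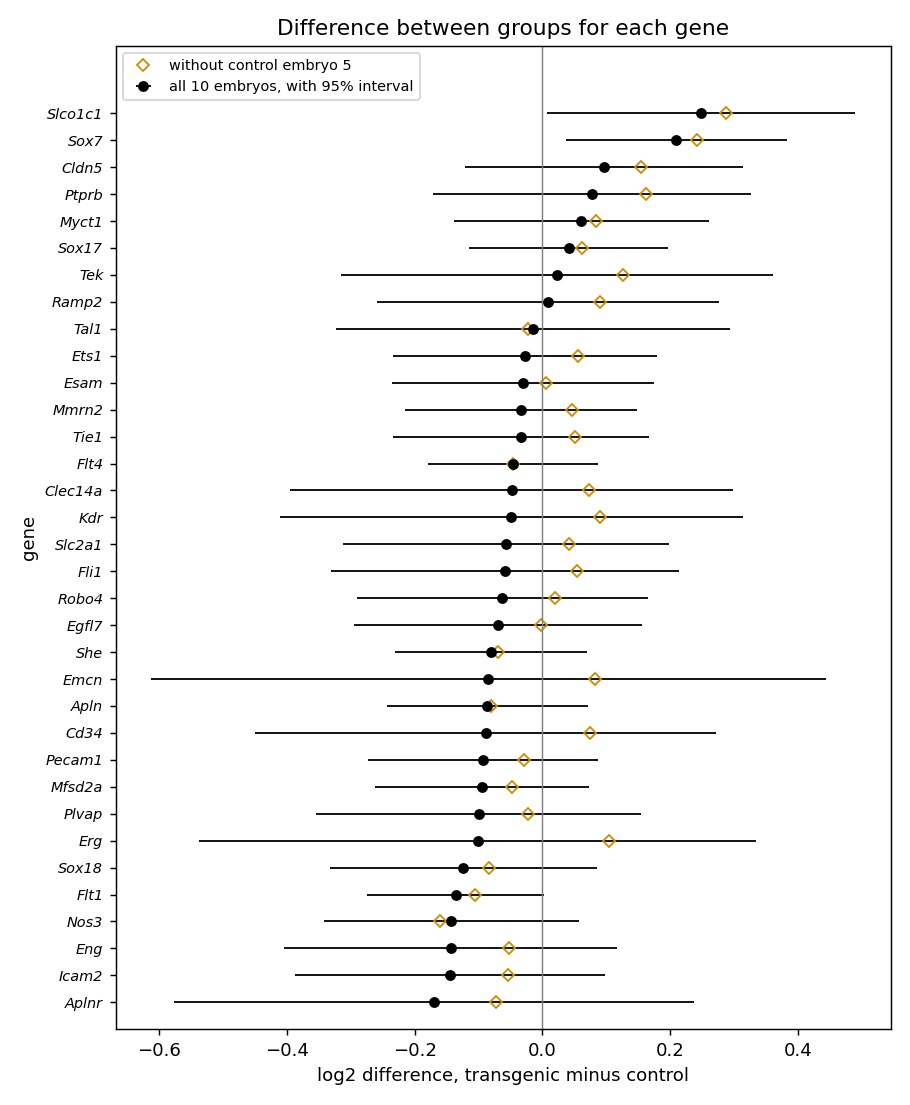
Log2 difference, transgenic minus control, for each of the 34 endothelial genes with its 95% interval in limma (filled points), and the difference without control embryo 5 (open diamonds). The intervals of Sox7 and Slco1c1 exclude 0 and the other 32 include it; without control embryo 5, 20 of the 34 points lie above 0, against 8 with all embryos.

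Between embryos of the same group, many endothelial genes were high or low on the same arrays. Control embryo 5 read above the mean of the other 4 controls in 32 of 34 genes, by a median of 0.39, and above every other control in 27 of 34, where 26.6% of all genes did so. It was the highest of all 10 arrays in 22 of 34, where 18.4% of all genes were. The excess ran up to 1.03 in Erg, 0.83 in Emcn and 0.82 in Cd34, while Nos3 and Tal1 read -0.092 and -0.038 relative to the other controls. Beyond that embryo, transgenic embryos 2 and 4 and control embryo 3 tended to the high side. Transgenic embryo 2 exceeded a gene's median over the 10 arrays in 28 of 34 genes and transgenic embryo 4 in 22, against 29 in control embryo 3. Transgenic embryo 5 did so in 7 genes, control embryo 1 in 6 and control embryo 4 in 5. The median SD of the endothelial genes was 0.136 among transgenic and 0.202 among control embryos, and 0.161 among controls without embryo 5, beside 0.114, 0.117 and 0.103 over all genes.

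Markers of other cell types were read from the same arrays. The mean over the 34 endothelial genes ran from 5.91 to 6.11 in transgenic and 5.89 to 6.33 in control embryos, and without embryo 5 the highest control mean was 6.15. The mean over 12 mesenchyme genes, such as collagens of connective tissue, ran from 6.45 to 7.10 in transgenic and 6.24 to 8.11 in control embryos. In control embryo 5 they lay above every other control in 12 of 12 genes, by a median of 1.54 over the mean of the others. Over all genes 26.6% lay above every other control in this embryo, the share beside the counts of the lists that follow. The 8 measured erythroid genes ran from 6.48 to 7.32 in transgenic and 6.51 to 7.70 in control embryos, and control embryo 5 was above the other controls in 6 of 8. The 15 pericyte genes, which mark the mural cells that wrap small vessels, ran from 5.58 to 5.80 in transgenic and 5.55 to 6.04 in control embryos, and control embryo 5 was above the other controls in 8 of 15, by a median of 0.11 over their mean. Its excess was 2.85 in Acta2 and 1.12 in Tagln, both genes of contractile smooth muscle. The 13 macrophage genes ran from 4.93 to 5.04 in transgenic and 4.82 to 5.08 in control embryos, with control embryo 5 above the other controls in 6 of 13. Neuron genes went the other way in control embryo 5, below every other control in 10 of 10, where 5217 of 19938 genes were. They ran from 8.62 to 9.24 in transgenic and 7.63 to 8.97 in control embryos. Radial glia genes ran from 8.87 to 9.01 in transgenic and 8.95 to 9.03 in control embryos. Of the 7 measured forebrain genes, control embryo 5 was above every other control in 4 (Emx1, Emx2, Lhx2 and Otx1) and below every other control in 3, with differences from their mean of -3.83 in Dlx1 and -2.54 in Dlx2, which mark the ventral forebrain. Of the genes in these other lists, 2 macrophage genes and 1 vascular gene had means below the lower quartile of all genes. No detection call was at hand for any listed gene. The part of these other cell types in the endothelial values was not tested.

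No gene of these lists passed the test over all genes, and differences are again transgenic minus control on the log2 scale. Over all genes 0.105% passed. Higher means were seen in 48.1% of all genes, and in 47.9% without control embryo 5, the shares beside the counts that follow. Among pericyte genes 8 of 15 had higher and 7 lower means in transgenic embryos, with a median difference of 0.00659. Without control embryo 5 these counts were 12 and 3, with a median of 0.028. The smallest p-values belonged to the adhesion molecule gene Mcam at -0.13, the matrix protein gene Vtn at 0.30, Ndufa4l2 at 0.082 and Higd1b at 0.087. Of 13 macrophage genes 11 had higher means, with differences from -0.060 to 0.19, and 12 had higher means without control embryo 5. None of the 13 lay under an unadjusted p of 0.05 in limma with all embryos, where 7.58% of all genes did. The complement and chemokine receptor genes with the smallest p were Cx3cr1 at 0.13, C1qb at 0.19, C1qa at 0.13 and C1qc at 0.13. The median over the mesenchyme genes was -0.14, and 0.24 without control embryo 5. The 4 mesenchyme genes with the smallest p were Postn at -0.31, Fbln1 at -0.19, Prrx1 at -0.29 and Col6a3 at -0.17. Their differences without control embryo 5 were -0.016, -0.062, 0.023 and 0.095 in the same order. The erythroid median was -0.18, and -0.012 without control embryo 5. In that list the smallest p-values belonged to Alas2 at -0.31, Slc4a1 at -0.26, Hbb-y at -0.16 and Hba-x at -0.20. Leaving out control embryo 5 gave -0.11, -0.035, -0.049 and 0.036 in the same order. Neuron genes had higher means in transgenic embryos in 10 of 10, with a median of 0.30, and 0.068 without control embryo 5. Among them the smallest p-values were those of Snap25 at 0.39, Nefl at 0.51, Elavl4 at 0.21 and Ina at 0.55. Leaving out control embryo 5 gave 0.20, 0.27, 0.092 and 0.18 in the same order. The radial glia median was 0.000372, and -0.029 without control embryo 5. There Pax6 at 0.22, Ddah1 at -0.47, Nes at 0.15 and Hes1 at -0.28 had the smallest p-values with all embryos. The 7 measured forebrain genes had a median of -0.20, and -0.16 without control embryo 5. Their leading genes by p were Emx1 at -0.37, Lhx2 at -0.28, Otx1 at 0.19 and Six3 at 0.10.

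**Figure D4:**
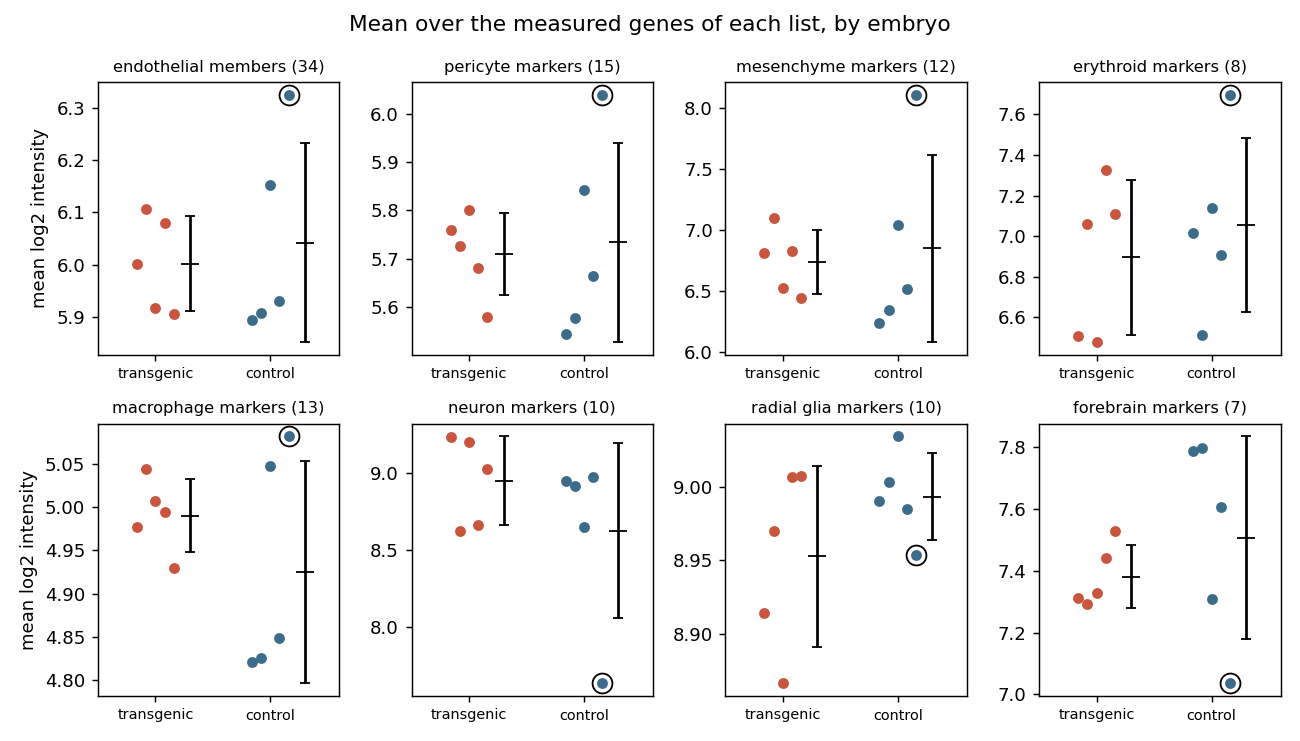
Mean log2 intensity over the measured genes of each list (number in brackets) in the 5 transgenic (left) and 5 control (right) embryos, with bars for the mean ± SD and a ring around control embryo 5. Control embryo 5 has the highest mean of the endothelial, pericyte, mesenchyme, erythroid and macrophage lists. Among controls it was highest in 8 of the 15 pericyte and 6 of the 13 macrophage genes. Its pericyte mean includes Acta2, at 2.85 above the mean of the other controls. It has the lowest mean of the neuron and forebrain lists, though 4 of the 7 forebrain genes were highest in it among controls. Each panel has its own axis.

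Ligands and partners of vascular signalling gave 0 calls among 26 genes, where 0.105% of all genes were called. Means were higher for 7 and lower for 19, where 48.1% of all genes had higher means, and the median difference was -0.074. Without control embryo 5 these counts were 10 and 16, where 47.9% of all genes had higher means, and the median was -0.026. By the unadjusted p with all embryos 1 of 26 lay under 0.05 in each direction, near the 4.1% higher and 3.48% lower of all genes. In the fit without control embryo 5, 1 lay under it upward and 3 downward, beside 3.92% and 2.9% of all genes. Vegfa, which neural progenitors release to attract vessels, averaged 6.84 ± 0.0977 in transgenic and 6.97 ± 0.0645 in control embryos (SD, n = 5 each). That difference of -0.13 ± 0.0598 did not pass (limma adjusted p = 0.671). Efnb2, which encodes an arterial ephrin that neural cells also express, differed by -0.39 ± 0.0975 (limma adjusted p = 0.22; exact two-sided permutation p = 0.0238), and without control embryo 4 it was -0.48 and passed (limma adjusted p = 0.0174). In the other 9 fits that left out 1 embryo Efnb2 did not pass, with adjusted p up to 0.511 in limma, and without control embryo 5 it was -0.34 (limma adjusted p = 0.328). Cxcr4 read 8.43, 8.43, 8.38, 8.38 and 8.42 in transgenic embryos 1 to 5, against 7.89, 7.80, 8.19, 8.32 and 8.32 in control embryos 1 to 5. Cxcr4 encodes a chemokine receptor of endothelial tip cells that migrating neurons also carry. Its groups did not overlap, which held for this 1 of the 26 genes and for 0.978% of all genes in the upward direction, and the difference of 0.30 ± 0.0984 did not pass over all genes (limma adjusted p = 0.463). Nrp1, a coreceptor of Kdr and of semaphorin receptors, differed by -0.15.

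Among 27 genes of Wnt signalling to vessels, of the barrier and of its basement membrane, 12 were higher and 15 lower, with a median of -0.016, and 0 passed. Over all genes 48.1% had higher means and 0.105% passed. Without control embryo 5, 17 were higher and 10 lower, with a median of 0.035, and 1 passed. In that fit 47.9% of all genes had higher means and 0.186% passed. By the unadjusted p with all embryos, 3 lay under 0.05 upward and 3 downward, beside 4.1% and 3.48% of all genes. Wnt7a encodes a ligand that neural progenitors make and that induces barrier genes in brain endothelium. Wnt7a read 6.08, 6.40, 6.29, 6.45 and 6.40 in transgenic embryos 1 to 5, against 7.24, 7.08, 6.78, 6.78 and 6.70 in control embryos 1 to 5. All transgenic embryos lay below all controls, and the difference of -0.59 ± 0.109 missed the threshold (limma adjusted p = 0.0823). Without control embryo 5 the Wnt7a difference was -0.65 and passed (limma adjusted p = 0.0458). Tspan12 encodes a membrane protein that assists the Frizzled-4 receptor in vessels. Tspan12 read 7.20, 6.97, 6.92, 7.19 and 7.20 in transgenic embryos 1 to 5, against 7.66, 7.46, 7.51, 7.35 and 7.66 in control embryos 1 to 5. Its groups did not overlap either, and the difference of -0.43 ± 0.0825 did not pass (limma adjusted p = 0.0896). Without control embryo 4 it was -0.48 and passed (limma adjusted p = 0.047), and without control embryo 5 it was -0.40 and did not (limma adjusted p = 0.112). Both Wnt7a and Tspan12 passed in 1 of 10 fits that left out 1 embryo, with limma adjusted p up to 0.22 and 0.229 in the others. Groups that do not overlap with lower values in transgenic embryos were seen for 2 of these 27 genes, where 0.622% of all genes showed this. The drug efflux pump gene Abcb1a, a late barrier marker, differed by 0.28 (limma adjusted p = 0.562), and the monocarboxylate transporter gene Slc16a1 by -0.35 (limma adjusted p = 0.598). Wnt7b, the companion ligand of Wnt7a, had a higher mean in transgenic embryos, with a difference of 0.22 ± 0.0964 (limma adjusted p = 0.629). Apcdd1, a Wnt inhibitor, had the highest difference of the list at 0.44 ± 0.191 (limma adjusted p = 0.634).

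Promoter windows of the endothelial genes were searched for the letters of 3 elements, because the active factor belongs to the FoxO family and ETS factors bind near many endothelial genes. RefSeq windows of 300 bases on GRCm38.p6 were at hand for 20 of the 34 genes, 25 windows in all, each from 250 bases before to 50 after a gene's start. The FOXO element GTAAACA, searched on both strands, was found in 1 of 25 windows (4%), that of Myct1, and in 3.65% of all 32851 windows. The ETS element AGGAAGT was found in 6 of 25 windows (24%), of Egfl7, Eng, Flt1, Myct1 and Slco1c1, and in 9.35% of all windows. The composite of FOX and ETS letters, AACAGGAA, was found in 2 of 25 (8%), of Egfl7 and Emcn, and in 2.65% of all; the composite and the ETS element share the letters AGGAA, so matches to them can overlap. A match is a description of these letters and not a measured binding site. Of the 6 endothelial genes with the smallest p that had a window, Slco1c1, Flt1 and Eng held a motif, and their windows are shown 5′ to 3′ with the ETS element on either strand in capitals.
Slco1c1, chr6:141524104-141524403, plus strand: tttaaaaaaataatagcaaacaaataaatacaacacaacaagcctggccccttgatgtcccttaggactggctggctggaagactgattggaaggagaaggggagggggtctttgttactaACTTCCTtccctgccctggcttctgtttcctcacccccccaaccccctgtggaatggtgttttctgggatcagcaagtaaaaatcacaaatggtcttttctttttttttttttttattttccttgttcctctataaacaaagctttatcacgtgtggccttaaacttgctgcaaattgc
Flt1, chr5:147725962-147726261, minus strand: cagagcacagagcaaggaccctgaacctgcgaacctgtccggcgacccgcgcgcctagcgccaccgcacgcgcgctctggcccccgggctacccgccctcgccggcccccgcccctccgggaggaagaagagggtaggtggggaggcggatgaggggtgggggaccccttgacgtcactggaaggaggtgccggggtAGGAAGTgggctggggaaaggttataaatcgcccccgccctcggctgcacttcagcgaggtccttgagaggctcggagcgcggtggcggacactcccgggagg
Eng, chr2:32646345-32646644, plus strand: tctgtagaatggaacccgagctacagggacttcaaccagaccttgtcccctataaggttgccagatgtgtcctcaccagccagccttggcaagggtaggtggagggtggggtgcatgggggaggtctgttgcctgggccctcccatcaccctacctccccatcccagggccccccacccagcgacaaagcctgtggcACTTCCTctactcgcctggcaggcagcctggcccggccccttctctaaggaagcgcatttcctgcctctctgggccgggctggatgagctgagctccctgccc
Of these 3 genes, Slco1c1 had a higher mean in transgenic embryos and Flt1 and Eng lower ones, and none passed, as given above.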

How the data were processed

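Total RNA from 10 forebrains (5 transgenic, 5 control, grouped by title) was hybridized to Affymetrix arrays. The authors deposited log2 intensity values for 35556 probe sets. Affymetrix Expression Console is the tool in the submitters' processing notes, and its version, algorithm and settings are not given in the sources used here. Array medians lay between 5.36 and 5.39, and no further normalization was applied.

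Names of genes were taken from the platform table and updated through the RefSeq table of GRCm38.p6. A single gene was named for 21789 probe sets, several genes for 1621 and none for 12146, and the brightest probe set by mean stood for each of 19938 genes. The group difference was fitted in limma 3.58.1 (R 4.3.3) with group as the sole term, empirical Bayes moderation, a two-sided test and Benjamini-Hochberg adjustment over all genes at 0.05. This procedure was tested on simulated data. For single genes all 252 assignments of embryos were also enumerated, and 0.00794 is the smallest p this exact permutation test allows. The number of arrays limits the precision, and p-values measure the spread between these embryos.

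The 34 genes, the lists and the motifs were chosen with earlier results of these data known. Values in every embryo were given for Pecam1, Kdr, Cldn5, Slc2a1 and the 10 endothelial genes with the smallest p. In each other list the 4 genes with the smallest p were named. The values of Erg, Cxcr4, Wnt7a and Tspan12 by embryo, the mention of Wnt7b, Apcdd1, Acta2, Tagln, Emx2, Dlx1 and Dlx2, the bound of 0.5 for intervals and the look at control embryo 5 were picked after the values were seen. The labels do not say that embryos sharing a number are pairs, so the numbers were not used as pairs in the main fit. Deviations from the group means correlated above 0.1 in 1 of 5 such pairs. This check cannot decide whether the numbers mark pairs, since control embryo 5 stood apart and shifts the control mean. The fit was repeated with the replicate number as a block and without each embryo. It was also repeated with a variance trend and robust moderation, with weights per array, after quantile normalization, after centring on array medians, without genes below the 40th percentile of mean level, and with a gene's probe sets averaged. Background correction could not be varied, since the table holds summarized values.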

Additional observations from a re-analysis of the deposited data

Results flagged for a closer look

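The 34 endothelial genes and the 42 other genes named from the lists gave 152 groups of 5 embryos. In 10 of these, 1 embryo stood apart from its group, with a ratio of gap to range above Dixon's 95% critical value; chance gives about 1 in 20. Among endothelial genes, Cldn5 read 7.45 in transgenic embryo 4, with the next transgenic value at 7.18. Sox7 read 5.82 in transgenic embryo 1, with the next at 5.59, and without that embryo its difference was 0.16. Sox17 read 4.90 in transgenic embryo 2, with the next at 4.67. Mmrn2 read 5.99 in control embryo 5, with the next control at 5.65. Of the other genes, Vegfa was highest in transgenic embryo 2 at 7.01 and Nes, a radial glia gene, lowest in transgenic embryo 1 at 8.92, each within its group. Control embryo 5 was the highest control in the mesenchyme genes Postn at 5.85 and Prrx1 at 8.05, and the lowest control in the neuron genes Snap25 at 6.14 and Ina at 7.50.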

How the results depend on the processing

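In each of the 10 fits that left out 1 embryo and the 7 other alternatives, 0 of the measured endothelial genes passed (28 of the 34 were left without dim genes); the smallest adjusted p among them was 0.379, without transgenic embryo 4. The median difference ran from -0.098 to 0.044 over the fits that left out 1 embryo and was above 0 only without control embryo 5. Endothelial genes under an unadjusted p of 0.05 numbered 0 without transgenic embryo 1 or control embryo 2, 1 without transgenic embryo 3 or 5 or control embryo 1 or 3, and 3 without transgenic embryo 4 or control embryo 4; the count was 1 when dim genes were left out. Over all genes, calls numbered 7 without transgenic embryo 1, 8 without transgenic embryo 5 or control embryo 1, 10 without transgenic embryo 2 or control embryo 2, 11 without control embryo 3, 12 without transgenic embryo 4, 37 without control embryo 5 and 58 without control embryo 4. They numbered 39 with array weights and 2 with the replicate block, in which 0 endothelial genes passed and 2 lay under the unadjusted threshold. By deviations, 0 of 5 transgenic embryos had their same-numbered control as the closest match, which does not decide whether the numbers mark pairs. The cause of these shifts in the number of calls was not tested. Signs of 16 endothelial genes turned in at least 1 fit that left out 1 embryo: Cd34 from -0.18 to 0.075, Clec14a from -0.16 to 0.074, Emcn from -0.24 to 0.082, Erg from -0.18 to 0.10, Esam from -0.096 to 0.031, Ets1 from -0.083 to 0.056. Further ranges were Fli1 from -0.12 to 0.054, Kdr from -0.15 to 0.090, Mmrn2 from -0.072 to 0.046, Ramp2 from -0.056 to 0.090, Robo4 from -0.11 to 0.020, Slc2a1 from -0.12 to 0.042. The last were Sox17 from -0.015 to 0.062, Tal1 from -0.12 to 0.079, Tek from -0.075 to 0.13, Tie1 from -0.076 to 0.051. With array weights, in which control embryo 5 had the lowest weight at 0.491, Kdr turned to 0.0035, Clec14a turned to 0.022, Mmrn2 turned to 0.0068, Ets1 turned to 0.013. With median centring Ramp2 turned to -0.0045. Of the 42 other named genes, 7 turned sign in fits without 1 embryo, with ranges of -0.42 to 0.023 for Prrx1, -0.27 to 0.095 for Col6a3, -0.40 to 0.036 for Hba-x, -0.85 to 0.032 for Acta2, -0.28 to 0.066 for Tagln, -0.84 to 0.31 for Dlx1 and -0.77 to 0.030 for Dlx2. Wnt7a passed with array weights as well (limma adjusted p = 0.0469).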
